A study of Mus musculus with 5 samples.

Results

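The mitosis genes are 38 genes whose proteins start mitosis, build the spindle, attach and separate chromosomes and divide the cell. They were taken by gene symbol from a table of 53700 genes. All 38 were found, each as 1 row, and all 38 reached 10 CPM (counts scaled to library size) in at least 1 library. The cells were MutuDC, a mouse dendritic cell line made from mice that carry a viral large T antigen under the CD11c (Itgax) promoter. Large T is known to bind and inactivate the Rb proteins, which restrain E2F factors and entry into the cell cycle. Poly-A RNA was sequenced at 0 h and after 2, 6, 12 and 24 h with Fanchinoline, a plant alkaloid. No dose is stated in the sources used here. The labels call the 0 h cells a vehicle control, while the design text calls the controls untreated. That text speaks of triplicates, but the table holds 1 library per time point, and whether these are pools is not stated. No difference between 2 time points has a replicate check, and the compound and hours in culture cannot be told apart, since only the vehicle library lacks the compound. In a bulk sample, fewer dividing cells and less of a transcript per dividing cell cannot be told apart either.

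Mitosis is driven by CDK1 bound to cyclins A and B and by the Polo and Aurora kinases. The spindle checkpoint holds the anaphase-promoting complex in check until every kinetochore is attached, and this complex then marks cyclin B and securin for destruction. Most of the genes are transcribed in the late part of the cell cycle, when MuvB with B-Myb or FOXM1 acts at the cell cycle genes homology region (CHR) and NF-Y acts at CCAAT boxes. Dendritic cells in tissue rarely divide once mature, whereas the line is kept in continuous growth.

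Promoters were read for their CHR and CCAAT letters, because these elements are shared by genes of this class. RefSeq promoter windows on GRCm38.p6, with 250 bases before and 50 after the start, were matched for 31 of the 38 genes. The letters TTTGAA or TTTAAA, on either strand, were in the window of 27 of the 31 genes (87.1%), against 30.6% of 27025 genes with such windows. CCAAT on either strand was in 24 windows (77.4%), against 41.1% of all genes, and both motifs were in 23 (74.2%), against 12.2%. When only the bases before the start were read, 15 of the 31 (48.4%) held the CHR letters, against 28.1% of all genes. CHR and CCAAT letters were searched separately, so 2 matches may share a base, and a match describes the sequence and is not a shown binding site. The 150 bases before the start are printed 5′ to 3′ on the coding strand for 5 genes that differ in their course over time. Capitals mark CHR letters and CCAAT boxes on either strand, so that reverse complements appear as TTCAAA for the first CHR form and as ATTGG for CCAAT. Genes are said to have risen or fallen where the slope over the 4 treated libraries passed an edgeR adjusted p of 0.05 (Benjamini-Hochberg). Top2a (chr11:99024190-99024339, minus strand), Kif11 (chr19:37376232-37376381, plus strand) and Bub1 (chr2:127831860-127832009, minus strand) rose from 2 to 24 h. Plk1 (chr7:122159285-122159434, plus strand) did not pass the test, and Cdc20 (chr4:118437344-118437493, minus strand) fell.
Top2a: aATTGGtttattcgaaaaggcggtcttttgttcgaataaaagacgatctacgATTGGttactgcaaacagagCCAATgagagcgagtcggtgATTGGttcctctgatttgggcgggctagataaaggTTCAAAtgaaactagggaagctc
Kif11: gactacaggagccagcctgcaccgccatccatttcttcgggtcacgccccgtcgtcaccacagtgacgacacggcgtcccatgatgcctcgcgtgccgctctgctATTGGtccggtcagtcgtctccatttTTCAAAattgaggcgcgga
Bub1: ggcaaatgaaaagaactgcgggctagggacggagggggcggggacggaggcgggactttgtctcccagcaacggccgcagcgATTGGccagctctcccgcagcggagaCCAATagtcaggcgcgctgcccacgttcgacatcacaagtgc
Plk1: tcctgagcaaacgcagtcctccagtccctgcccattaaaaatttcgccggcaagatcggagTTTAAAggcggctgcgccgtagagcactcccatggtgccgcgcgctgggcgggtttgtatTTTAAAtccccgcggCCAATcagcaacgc
Cdc20: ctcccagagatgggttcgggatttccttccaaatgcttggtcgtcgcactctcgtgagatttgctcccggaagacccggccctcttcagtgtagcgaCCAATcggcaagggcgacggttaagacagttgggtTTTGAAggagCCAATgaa
Top2a had 1 CHR match and 4 CCAAT matches in these bases, and Plk1 had 2 CHR matches and 1 CCAAT match. Bub1, which had the steepest slope of the 38 genes, had 2 CCAAT matches and no CHR letters here or in its whole window. Mad2l1, Nuf2 and Nusap1 also lacked CHR letters in the window. All of these rose from 2 to 24 h, where 23 of the 38 genes and 8.01% of all genes tested rose. After adjustment for length and GC content Bub1 and Nusap1 passed, while Mad2l1 and Nuf2 did not. A link between the motifs and the slopes was not tested. Cdc20, the gene that fell (7.67% of all genes fell), had 1 CHR match and 2 CCAAT matches, and it did not pass after that adjustment.

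Total counts per library lay between 33568526 and 42854511, and 10 CPM stood for 328 to 427 counts. All 12 cDC1 dendritic cell markers were over 10 CPM, while all 5 T cell markers were at 0, and all B cell, neutrophil and fibroblast markers were below 1 CPM. From 2 to 24 h 8 of the 12 cDC1 markers lay lower and 4 higher. Their median log2 ratio was -0.41 (-0.27 after adjustment for length and GC content). At 24 h over vehicle 7 of these markers lay lower and 5 higher. Cd8a (32.5 CPM in vehicle, 13.7 at 24 h) alone of them differed there by a ratio of 2 or more. By the rule given below, 4.09% of all genes were called in that comparison. Of 6 macrophage and monocyte markers, 2 were over 10 CPM, and the list's summed level lay between 313 and 428 CPM. Of these 2, Csf1r was at 72.3 CPM in vehicle and 137 at 24 h, and Lyz2 at 355 and 198. Mitochondrial genes took up 2.58% of counts in the vehicle library and 1.47% to 1.78% under treatment. The vehicle library also stood apart by transcript length: the median log2 ratio to vehicle of the longest quintile of genes exceeded that of the shortest by 0.61 at 2 h and by 0.78 at 24 h. Between 2 and 24 h that difference was 0.15, while genes of highest GC content lay lower than those of lowest by 0.36. Levels and ratios below are unadjusted unless stated, and for each role the ratios that moved most after adjustment for length and GC content (a spline fit across all genes) follow them.

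The 38 genes took up 0.509% of all counts in the vehicle library and then 0.458%, 0.501%, 0.569% and 0.6% in the 2, 6, 12 and 24 h libraries. These are shares of raw counts, in which genes with many counts weigh most. Top2a and Mki67 held 17963 and 11044 of the 170967 counts of the 38 genes in vehicle, and 31967 and 21666 of 244473 at 24 h. The common course of the 38 genes was a low point at 2 h followed by higher values at later times. The lowest of the 5 libraries was the 2 h library for 27 genes, vehicle for 6, the 24 h library for 4 and the 6 h library for 1. The highest was the 24 h library for 16 genes, vehicle for 12, the 12 h library for 9 and the 2 h library for 1. Per kilobase of the longest coding transcript, the highest mean levels were those of Top2a (119 CPM per kb), Racgap1 (107), Ube2c (91.6) and Ccnb1 (91.3), and the lowest were those of Cenpf (3.35) and Ttk (7.04).

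**Figure D1:**
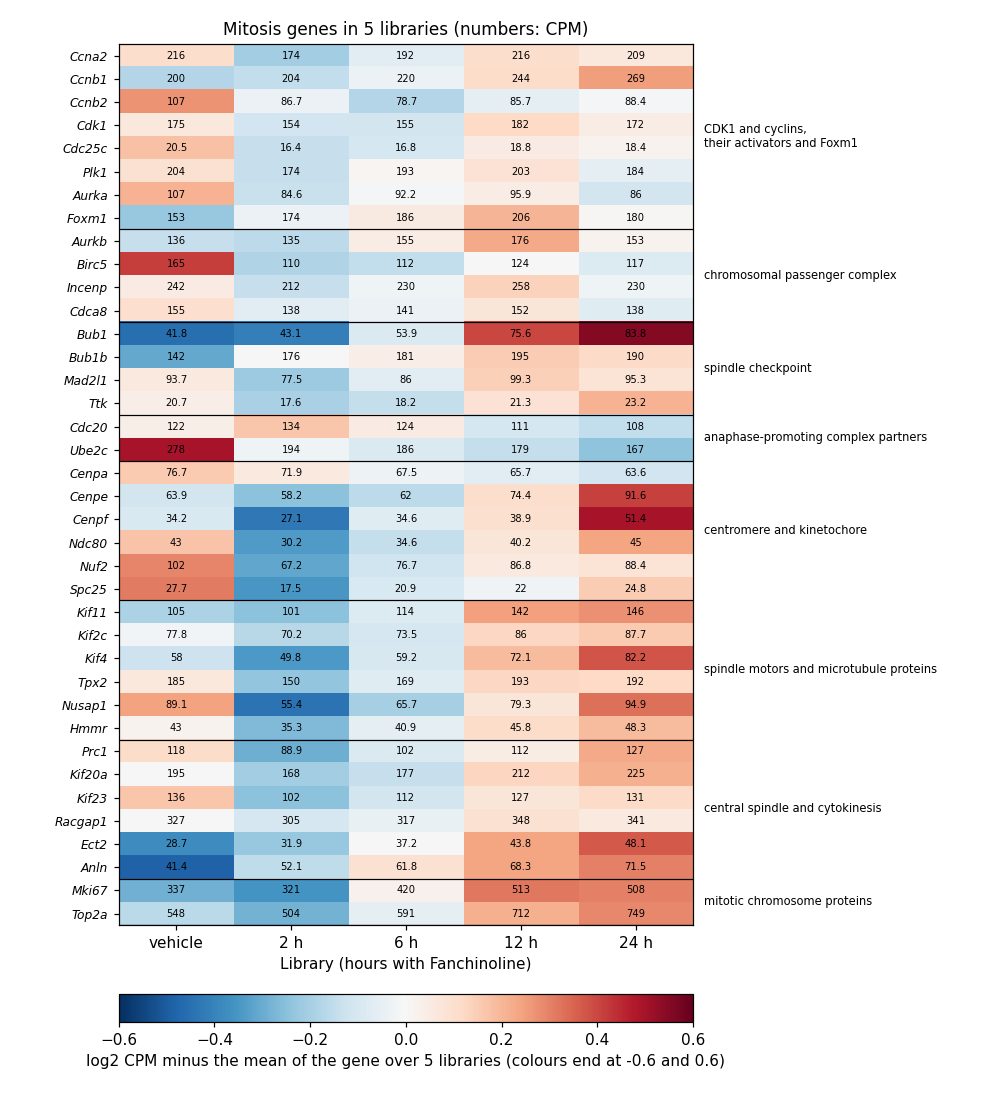
Level of each of the 38 mitosis genes (rows, by role) in each library (columns, hours with Fanchinoline), with CPM printed in the cells and colour scaled within each gene. The 2 h column holds the lowest value of 27 genes and the 24 h column the highest of 16.

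Among CDK1, the cyclins, their activators and Foxm1, log2 ratios to vehicle at 24 h lay between -0.32 (Aurka) and 0.43 (Ccnb1). Cdk1, the catalytic kinase, was at 175 CPM in vehicle and then at 154, 155, 182 and 172 CPM in the 2, 6, 12 and 24 h libraries. Ccnb1 (cyclin B1) was at 199.7 CPM in vehicle and then at 204, 220.4, 244 and 269 CPM in the 2, 6, 12 and 24 h libraries. The related cyclin B2 gene, Ccnb2, was at 107 CPM in vehicle and between 78.7 and 88.4 under treatment. At 24 h the log2 ratio to vehicle was 0.43 for Ccnb1 (0.57 adjusted) and -0.27 for Ccnb2 (-0.04 adjusted). Ccna2 (cyclin A2) was at 216 CPM in vehicle and then at 174, 192, 216 and 209 CPM in the 2, 6, 12 and 24 h libraries. Plk1, which acts in mitotic entry, spindle assembly and cytokinesis, ranged from 174 to 204 CPM, Aurka, a spindle pole kinase, from 84.6 to 107, and Cdc25c, a phosphatase that activates CDK1, from 16.5 to 20.5. Foxm1, a transcription factor for genes of this class, was at 153 CPM in vehicle and lay between 174 and 206 under treatment. Its adjusted log2 ratios were -0.15, -0.05, 0.12 and -0.06 at 2, 6, 12 and 24 h, so that its place above vehicle was not kept at 2, 6 and 24 h. Across the 4 treated libraries Ccna2 and Ccnb1 rose among these 8 genes, where 8.01% of all genes tested rose, and Ccna2 did not pass after adjustment.

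None of the 4 chromosomal passenger genes passed the trend test over the treated libraries, where 15.7% of all genes passed in either direction. The complex corrects faulty attachments of chromosomes to the spindle and acts in cytokinesis. Birc5 (survivin) was at 165 CPM in vehicle, then at 109, 112, 124 and 117 at 2, 6, 12 and 24 h, so that vehicle lay above every treated library. Its log2 ratio at 24 h was -0.50 (-0.53 adjusted). Cdca8 (borealin) was also highest in vehicle, at 155 CPM against 137.5 to 152 under treatment, but its adjusted ratio at 24 h was 0.02. Incenp, the scaffold, ranged from 212.5 to 257.5 CPM and Aurkb, the kinase, from 135 to 176, with both highest at 12 h.

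Bub1, of the spindle checkpoint, had the highest ratio to vehicle of the 38 genes at 24 h. This gene (ENSMUSG00000027379, chr2:127801122-127831865, minus strand), a kinetochore kinase, was at 41.8 CPM in vehicle and then at 43.1, 53.9, 75.6 and 83.8 CPM in the 2, 6, 12 and 24 h libraries. Its log2 ratio to vehicle was 1.002 at 24 h (95% exact interval 0.91 to 1.09; 1.01 after adjustment for length and GC content), and 0.04 at 2 h (0.27 adjusted). Bub1b (BubR1), which binds and inhibits CDC20, was at 142 CPM in vehicle and lay between 176 and 195 under treatment, with 176 already at 2 h. Mad2l1, another inhibitor of CDC20, and Ttk (Mps1), the kinase that starts checkpoint signalling, lay below vehicle at 2 h, at 77.45 against 93.7 CPM and 17.6 against 20.7 CPM. After adjustment the 2 h ratio of Ttk was 0.01, in place of -0.23, and the 24 h ratio of Mad2l1 was -0.42, in place of 0.02. Over the treated libraries Bub1, Mad2l1 and Ttk rose (8.01% of all genes did), and with adjustment Bub1 alone of these passed, whereas Bub1b had a slope of 0.05 and did not pass.

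Both partners of the anaphase-promoting complex had their lowest value at 24 h. Cdc20, its activator in mitosis, was at 122 CPM in vehicle and then at 134, 123.5, 111 and 107.5 CPM in the 2, 6, 12 and 24 h libraries. It was the gene whose highest value stood at 2 h, where 27 of the others were lowest. Its log2 ratio to vehicle at 24 h was -0.19 (-0.02 adjusted). Ube2c, the ubiquitin-conjugating enzyme of the complex, was at 278 CPM in vehicle, then at 194, 186, 179 and 167 at 2, 6, 12 and 24 h. Its log2 ratio to vehicle at 24 h, -0.74 (interval -0.78 to -0.69; -0.62 adjusted), was the lowest of the 38. Of the exon bases of Ube2c, 22.77% are shared with Tnnc2 on the other strand, and the library kit does not mark strand.

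Among centromere and kinetochore genes, 5 of 6 rose over the treated libraries, where 8.01% of all genes rose, and 3 (Cenpe, Cenpf and Ndc80) passed after adjustment. Cenpf, a large kinetochore protein, was at 34.2 CPM in vehicle and then at 27.1, 34.6, 38.9 and 51.4 CPM in the 2, 6, 12 and 24 h libraries. Cenpe, a kinetochore motor, was at 63.9 CPM in vehicle and then at 58.2, 62.05, 74.4 and 91.6 CPM in the 2, 6, 12 and 24 h libraries. The 3 listed partners in the Ndc80 complex, which binds microtubules, were lowest at 2 h. Ndc80 was at 43.0 CPM in vehicle and 30.2 at 2 h, Nuf2 at 102 and 67.25, and Spc25 at 27.7 and 17.5. At 24 h these stood at 45.0, 88.4 and 24.8 CPM. Their 2 h log2 ratios of -0.51, -0.61 and -0.66 became -0.20, -0.26 and -0.29 after adjustment, while that of Cenpf went from -0.34 to -0.70. Cenpa, the histone variant that marks centromeres, was at 76.7 CPM in vehicle and 71.9, 67.5, 65.7 and 63.65 at 2, 6, 12 and 24 h, and did not pass the trend test. Its 24 h ratio of -0.27 was -0.009 after adjustment.

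All 6 genes for spindle motors and microtubule proteins rose over the treated libraries, where 8.01% of all genes rose, and all but Hmmr passed after adjustment. Nusap1, a protein that bundles microtubules near chromosomes, was at 89.1 CPM in vehicle and then at 55.4, 65.7, 79.35 and 94.9 CPM in the 2, 6, 12 and 24 h libraries. Unadjusted, its 2 h value was the furthest below vehicle of the 38 genes, with a log2 ratio of -0.68 (interval -0.77 to -0.60; -0.50 adjusted). After adjustment that of Cenpf (-0.70) was the furthest below. Kif11, the motor that pushes spindle poles apart, was at 105 CPM in vehicle and then at 101, 114, 142.5 and 145.5 CPM in the 2, 6, 12 and 24 h libraries. Kif4, a chromosome-bound motor, went from 49.8 CPM at 2 h to 82.2 at 24 h, with vehicle at 58.0. Of its exon bases, 15.09% are shared with Pdzd11 on the other strand. Tpx2, an activator of Aurora A, was at 185 CPM in vehicle, 150.3 at 2 h and 192 at 24 h. Kif2c, a depolymerase of microtubules, and Hmmr, a spindle protein, went from 70.25 to 87.7 and from 35.3 to 48.3 CPM between 2 and 24 h. At 24 h the ratio to vehicle was 0.46 for Kif11 (0.23 adjusted), 0.50 for Kif4 (0.20 adjusted) and 0.06 for Tpx2 (-0.15 adjusted).

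For the central spindle and cytokinesis, 5 of 6 genes rose over the treated libraries, where 8.01% of all genes rose, and the same 5 passed after adjustment. Anln (anillin), the scaffold of the contractile ring, was at 41.4 CPM in vehicle and then at 52.1, 61.75, 68.3 and 71.5 CPM in the 2, 6, 12 and 24 h libraries. Ect2, which activates RhoA for the ring, was at 28.7 CPM in vehicle and then at 31.9, 37.2, 43.8 and 48.1 CPM in the 2, 6, 12 and 24 h libraries. In both genes the vehicle library was the lowest of all 5, and the 24 h ratios were 0.79 (0.56 adjusted) and 0.74 (0.65 adjusted). Prc1, the bundler of the central spindle, was instead at 117.5 CPM in vehicle, 88.9 at 2 h and 127 at 24 h, and Kif23 at 136, 102 and 131. Kif20a was at 195 CPM in vehicle, 168 at 2 h and 225 at 24 h, but 29.3% of its exon bases are shared with Cdc23. Racgap1, the partner of Kif23 in centralspindlin, ranged from 305 to 348 CPM and did not pass.

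The mitotic chromosome proteins Mki67 and Top2a both rose over the treated libraries, without adjustment (8.01% of all genes rose) and with it (4.88%). Mki67, the gene of the proliferation marker Ki-67, was at 337 CPM in vehicle and then at 321, 419.6, 513 and 507.5 CPM in the 2, 6, 12 and 24 h libraries. Top2a, topoisomerase II alpha, which untangles chromosomes, was at 548 CPM in vehicle and then at 504, 591, 712 and 749 CPM in the 2, 6, 12 and 24 h libraries. Both were highest in the 12 and 24 h libraries. The log2 ratio of Mki67 to vehicle at 24 h was 0.59, but it was -0.02 after adjustment for length and GC content. That of Top2a went from 0.45 to 0.16. Likewise that of Cenpf went from 0.59 to -0.03, and that of Cenpe from 0.52 to 0.02.

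Comparisons with vehicle asked how far each time point lay from the control. A gene was called when the 2 libraries differed by a ratio of 2 or more and the 95% exact interval, which covers counting error only, lay off 0 on the log2 scale. All 4 comparisons share the vehicle library. At 2 h the median log2 ratio was -0.22 over the 38 genes and 0.03 over the 8846 genes tested. The 2 h library lay below vehicle for 31 of 38 genes, for 29 with an interval below 0, and above it for 7. The median stayed below 0 after adjustment (-0.20). The later medians were -0.10, 0.07 and 0.08 at 6, 12 and 24 h, against 0.04, 0.02 and -0.0002 over all genes. Adjusted, they were -0.06, 0.04 and 0.03. At 24 h 23 genes lay above vehicle and 15 below, and 22 lay above it after adjustment.

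None of the 38 genes was called in the 2, 6 or 12 h libraries, where 1.33%, 1.94% and 3.07% of all genes were. Bub1 alone was called at 24 h, just past the limit, where 4.09% of all genes were. With a ratio of 1.5 as the limit, 4 genes lay lower at 2 h (Birc5, Nuf2, Spc25 and Nusap1), where 3.62% of all genes lay lower and 10.8% differed in either direction. Adjusted, their ratios were -0.58, -0.26, -0.29 and -0.50, so that none of the 4 reached that limit. Cenpf, at -0.34 unadjusted, was past it after adjustment, at -0.70. At 12 h 5 passed against 16.2% of all genes: Bub1, Ect2, Anln and Mki67 were higher and Ube2c lower. At 24 h 6 of 38 passed against 21.1% of all genes: Bub1, Cenpf, Ect2, Anln and Mki67 were higher and Ube2c lower. After adjustment Anln, Mki67 and Ube2c did not reach the limit at 12 h, nor Cenpf, Anln and Mki67 at 24 h. In either direction the share of mitosis genes past this limit (4, 5 and 6 of 38 at 2, 12 and 24 h) was no higher than the background.

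**Figure D2:**
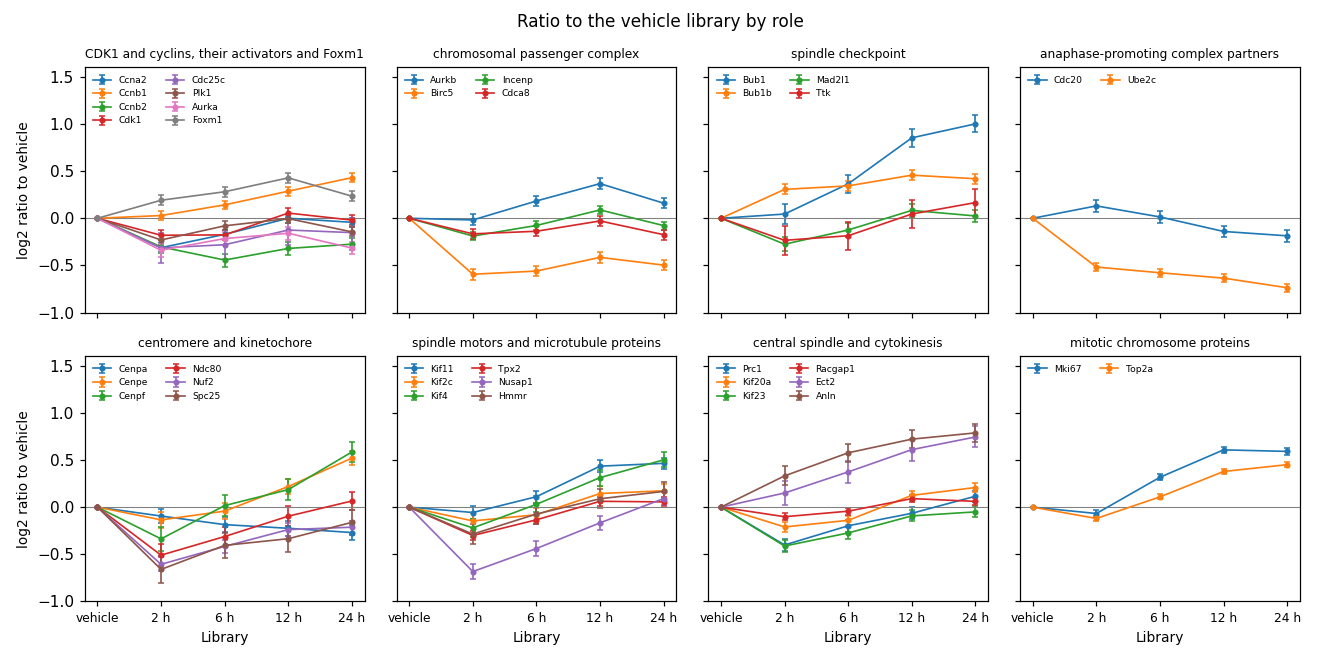
Log2 ratio of each mitosis gene to the vehicle library (y) at 2, 6, 12 and 24 h (x), in 1 panel per role. At 2 h 31 of 38 lines lie below 0, and at 24 h 23 lie above it, with Bub1 highest at 1.002 and Ube2c lowest at -0.74.

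Within the treated libraries, most of the genes stood higher at each step until 12 h. From 2 to 6 h 34 of 38 genes lay higher (median log2 ratio 0.14, against 0.01 over all genes), and from 6 to 12 h 35 did (0.17 against -0.007). From 12 to 24 h 20 lay higher and 18 lower, with a median of 0.03 against -0.03 over all genes (-0.02 against -0.05 adjusted, with 17 higher). None of the 38 was called in any of these steps, where 0.328%, 0.305% and 0.147% of all genes were. From 2 to 24 h the median was 0.36, against -0.03 over all genes, and 89.5% of the mitosis genes lay above 0, against 46.3% of all genes. Cdca8, Cdc20, Ube2c and Cenpa lay lower at 24 h than at 2 h. Again none was called at a ratio of 2 (background 1.55%), and 7 lay higher by a ratio of 1.5 (background 3.98% higher and 7.78% in either direction): Bub1 (0.96), Cenpf (0.92), Nusap1 (0.77), Kif4 (0.72), Mki67 (0.66), Cenpe (0.65) and Ect2 (0.59). After adjustment Bub1 (0.74), Cenpf (0.67) and Kif4 (0.66) were past that limit. Bub1 stood at percentile 98.9 of all genes and Cenpf at 98.6.

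**Figure D3:**
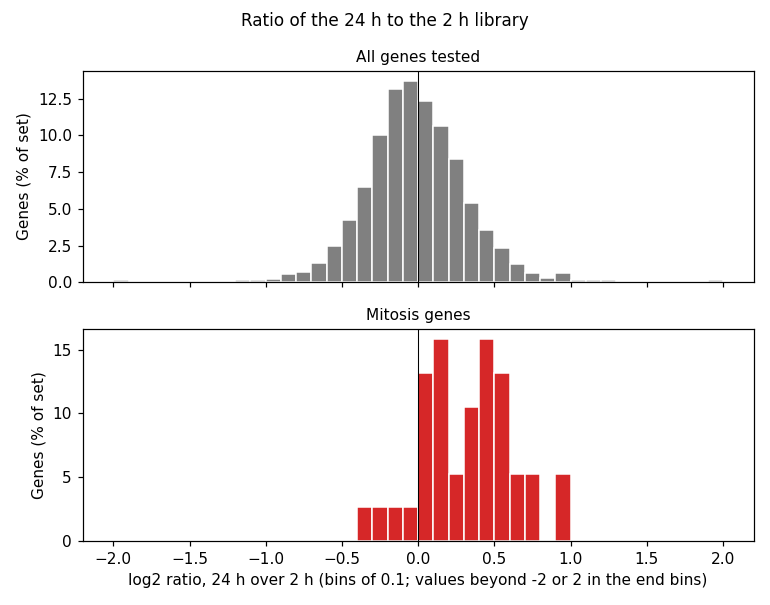
Distribution of the log2 ratio of the 24 h to the 2 h library for all 8846 genes tested (top) and the 38 mitosis genes (bottom), as percent of each set in bins of 0.1. The mitosis genes have a median of 0.36, against -0.03 for all genes, and 4 of them lie below 0.

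Over the mitosis genes, longer transcripts and lower GC content went with higher ratios. Across the 38 genes Spearman's rho of the 24 h over 2 h ratio was 0.591 with transcript length and -0.743 with GC content. The points share the same libraries, and genes are not replicates. The genes' median transcript was 3285 bases long with 46.9% GC, against 3151 bases and 50.1% over all genes. After adjustment the median ratio was 0.24 and 34 genes lay above 0, with Mad2l1 below 0 (-0.01) and Cdca8 above it (0.05), the reverse of their unadjusted places. The part of length and GC content in the remaining difference was not tested.

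A slope on log2(hours + 1) over the 4 treated libraries was put to a quasi-likelihood test in edgeR, which takes its spread from the lack of fit around the line (2 residual degrees of freedom) and from all genes. At an adjusted p of 0.05 (Benjamini-Hochberg over 13764 genes), 23 of the 38 mitosis genes rose, where 8.01% of all genes rose, and Cdc20 fell, where 7.67% fell. The median slope was 0.13 log2 CPM per unit of log2(hours + 1), against 0.003 over all genes, and 35 of 38 slopes were positive. The steepest were Bub1 (slope 0.34, edgeR adjusted p = 0.00259), Cenpf (0.30, adjusted p = 0.00328), Nusap1 (0.26, adjusted p = 0.00266) and Kif4 (0.25, adjusted p = 0.00311). Cdc20 had a slope of -0.11 (edgeR adjusted p = 0.0322), and it did not pass when the 2, 6 or 12 h library was left out. With length and GC adjustment 17 of the 38 rose, where 4.88% of all genes rose, and none fell (10.1% of all genes passed in either direction). Ccna2, Mad2l1, Ttk, Cdc20, Nuf2, Spc25 and Hmmr no longer passed. Without the 2 h library, the lowest for most of the genes, 11 of the 38 rose (4.08% of all genes), and with no filter on low counts none of 23437 genes passed, although 26 of the 38 and 4581 of all genes had an unadjusted p below 0.05.

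**Figure D4:**
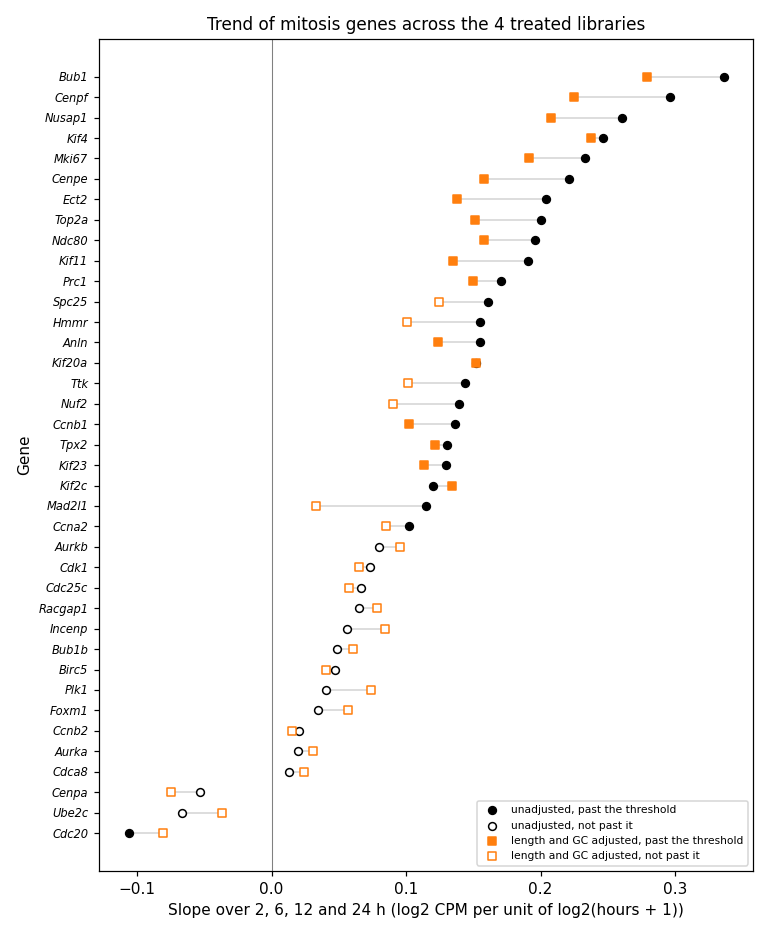
Slope of each mitosis gene over the 2, 6, 12 and 24 h libraries (x, log2 CPM per unit of log2(hours + 1)). Black circles are unadjusted slopes and orange squares are slopes adjusted for length and GC content, filled where past an edgeR adjusted p of 0.05. The unadjusted slopes run from -0.11 (Cdc20) to 0.34 (Bub1), and 23 genes pass on the positive side. After adjustment 17 genes pass, all on the positive side.

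With the vehicle library included, fewer genes followed a line. The same edgeR test over all 5 libraries called 5 of the 38 genes, where 9% of 13915 genes were called: Anln (adjusted p = 0.0216), Bub1 (0.0237), Ect2 (0.024) and Mki67 (0.0414) rose, and Ube2c (0.0349) fell. Of these, Ube2c did not pass over the treated libraries alone, and with length and GC adjustment Mki67 no longer passed and Ccnb1 did. Without the 12 h or the 24 h library none of the 38 passed, where 0% and 0.3% of all genes did. In these 2 fits 12 and 9 of the 38 had an unadjusted p below 0.05 in edgeR. So did 2815 of 13824 and 3203 of 13654 genes. Without the 6 h library 3 of the 38 passed (2.62% of all genes), and without the vehicle library the 24 genes above did.

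Other genes of mitosis were counted in the fit over the 4 treated libraries, where 8.01% of all genes rose and 7.67% fell. Of 40 further kinetochore and checkpoint genes 14 rose over the treated libraries and none fell (edgeR adjusted p of 0.05), and of 36 further spindle and cytokinesis genes 16 rose and none fell. Of 19 condensin and cohesin genes, which compact chromosomes and hold sister chromatids together, 14 rose and none fell. At 24 h all 19 lay above vehicle, 16 after adjustment, with a median log2 ratio of 0.44 (0.20 adjusted). Ncapg2, a condensin II subunit, was at 52.4 CPM in vehicle, 70.4 at 2 h, 119 at 12 h and 137 at 24 h. Its log2 ratio at 24 h was 1.38 (interval 1.30 to 1.46; 1.15 adjusted). Ncapd3, of the same complex, was at 47.7 CPM in vehicle and 97.7 at 24 h (log2 ratio 1.03; 0.69 adjusted). Nipbl, the cohesin loader, was at 46.1 and 98.55 CPM (1.09; 0.54 adjusted). Smc1a was the lowest of the list, at 0.12 (-0.13 adjusted).

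Knl1, the kinetochore scaffold that recruits BUB1, was at 15.95 CPM in vehicle, 24.8 at 2 h, 32.2 at 12 h and 40.5 at 24 h. Its log2 ratio at 24 h was 1.34 (interval 1.20 to 1.49; 0.91 adjusted). The lowest of that list was Ska1, a kinetochore protein, at -0.68, and its median was 0.02. Among the further spindle genes the median was 0.22, and values ran from -0.49 for Cdca3 to 0.86 for Mastl, the Greatwall kinase.

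Of 17 genes of the anaphase-promoting complex itself and its regulators, 3 rose over the treated libraries and none fell. Of all genes, 8.01% rose and 7.67% fell in that fit. The median log2 ratios to vehicle of the 17 were -0.24, -0.12, 0.008 and -0.13 at 2, 6, 12 and 24 h, beside -0.22, -0.10, 0.07 and 0.08 for the 38 mitosis genes, and the difference was not tested. Adjusted, these medians were -0.15, -0.01, -0.01 and -0.05, beside -0.20, -0.06, 0.04 and 0.03 for the 38 genes. At 24 h over 2 h the median of the 17 was 0.02. At 24 h over vehicle Anapc10 was lowest (14.6 against 26.7 CPM, log2 ratio -0.87) and Anapc1 highest (219.6 against 135.5 CPM, 0.70; 0.12 adjusted). Of 21 MuvB, Rb and E2F regulators tested 2 rose and 1 fell over the treated libraries, beside 8.01% and 7.67% of all genes. At 24 h E2f2, an activator, was highest in that list (0.73) and E2f4, an E2F of repressor complexes, lowest (-0.64), both unadjusted. The list's median was 0.27 (0.15 adjusted). At 2 h adjustment took E2f2 from 0.48 to 0.11 and E2f4 from -0.22 to -0.18.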

How the data were processed

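Poly-A RNA-seq of MutuDC cells gave 5 libraries, 1 per time point. The authors deposited raw counts per gene (33568526 to 42854511 per library). Per the submitters' processing notes, Trim Galore, HISAT2 and GRCm38 were used, and their versions are not given. The sources used here do not name the counting program, its annotation or its strand setting. Per the labels' protocols, the kit was TruSeq RNA v2, which does not mark strand. Reads shared by overlapping genes may therefore have been counted for either.

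Log2 CPM were computed in edgeR 4.0.16 (with limma 3.58.1 and R 4.3.3) from TMM-scaled counts, with scaling factors from 0.977 to 1.05 and 2 as the prior count. The comparisons took genes that reached 10 CPM in any library, by a rule of size, a ratio of at least 2 with a 95% exact (Clopper-Pearson) interval off 1. Intervals treat each count as a read and hold only counting error, since PCR copies are not independent molecules. Slopes on log2(hours + 1) were tested with edgeR's quasi-likelihood test after filterByExpr, with Benjamini-Hochberg adjustment at 0.05, and p-values rest on lack of fit, not on replicates. Length and GC content of the longest coding transcript (GENCODE on GRCm38, found for 99.88% of compared genes) were adjusted for with natural splines of 4 degrees of freedom. The size rule and the slope test were also run on simulated counts with known changes and no length or GC effect between libraries. The adjustment was not part of that run, and its outcome is not given here. DESeq2 1.42.0 and other settings served as alternatives.

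The 38 genes and the other lists, written from textbook knowledge, were chosen with earlier results of these data known. All 38 could be named. Of each other list, genes called against vehicle were named and otherwise the highest and the lowest at 24 h.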

Additional observations from a re-analysis of the deposited data

How the results depend on the processing

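With 1 library per time point, depth limits little at these levels, and the missing replicates limit every comparison. No paired analysis was possible because each group holds 1 library and the groups share no replicates. Changes of scaling or filter moved no median ratio of the 38 genes across 0. Length and GC adjustment turned the 24 h over 12 h median from 0.03 to -0.02 and took the 24 h over 2 h median from 0.36 to 0.24, that at 24 h over vehicle from 0.08 to 0.03, at 12 h from 0.07 to 0.04 and at 6 h from -0.10 to -0.06. Counts at a ratio of 2 were 0 or 1 throughout, too low to show stability. At a ratio of 1.5 in place of 2, 4 genes were called at 2 h (10.8% of all genes in either direction), 5 at 12 h (16.2%) and 6 at 24 h over vehicle (21.1%). At 6 h over vehicle 0 were, where 861 of 8846 genes were called higher and 339 lower. At 24 h over 2 h 7 were called (7.78% of all genes in either direction). In 31 promoters CHR letters were found in 15 when only the bases before the start were read.

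The trend test depended more on settings. Over the 4 treated libraries, 12 genes passed with a slope on hours (9.74% of all genes) and 0 with no filter on low counts, and leaving out 1 library gave 11 to 23 (7.84% to 15.9% of all genes). Over all 5 libraries, 10 passed with DESeq2's Wald test (21.4% of all genes with an adjusted p). With a slope on hours 0 passed, and with no filter on low counts 0 passed, where 0% of all genes did in both. At an unadjusted p below 0.05 in edgeR stood 11 of 38 and 2728 of 13915 genes with a slope on hours. With no filter these were 13 of 38 and 4843 of 24170 genes. Leaving out 1 library gave 0 to 24 (0% to 15.7% of all genes). The cause was not tested, except that the last value is the treated-only fit. Among all genes, the share of called genes that were higher at 6 h over vehicle went from 80.8% to 69% with length and GC adjustment, 59.6% with a minimum of 1 CPM and 43.1% with no filter.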

Other observations

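Genes that act before mitosis were measured in the same libraries. Of 40 DNA replication genes 12 rose over the 4 treated libraries and 1 fell (edgeR adjusted p of 0.05), where 8.01% of all genes rose and 7.67% fell. Their median log2 ratio to vehicle at 24 h was 0.19 (0.25 adjusted for length and GC content). At 2 h that median was 0.04, while that of the 38 mitosis genes was -0.22, and the difference was not tested. Pola1, the catalytic subunit of DNA polymerase alpha, was at 25.1 CPM in vehicle, 33.9 at 2 h and 50.9 at 24 h (log2 ratio 1.02; 0.73 adjusted), and Gins2, of the replicative helicase, was lowest at -0.36. Of 11 G1 cyclins and kinases 3 rose and 1 fell in that fit, beside the same shares of all genes, and their median at 24 h was -0.09. The highest was Ccne2 (cyclin E2; 37.7 against 25.5 CPM, 0.56) and the lowest Ccnh (-0.48), both unadjusted. At 2 h adjustment took Ccne2 from -0.32 to 0.15 and Ccnh from -0.50 to 0.03.

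Of 12 CDK inhibitors and related genes 4 rose over the treated libraries and 1 fell, where 8.01% of all genes rose and 7.67% fell. Cdkn1a, the gene of the CDK inhibitor p21, was at 23.4 CPM in vehicle, 21.1 at 2 h, 34.0 at 12 h and 45.5 at 24 h. It stood 1.11 higher at 24 h than at 2 h on the log2 scale (interval 0.99 to 1.23; 1.19 adjusted), so it and most mitosis genes were higher at 24 h than at 2 h in the same libraries. Cdkn3, a phosphatase that acts on CDKs, was called lower at 2 h (8.145 against 16.4 CPM, log2 ratio -1.003; -0.73 adjusted) and stood at 12.8 CPM at 24 h.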
